A study of Mus musculus with 6 samples.

Results

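The wild-type distribution of 5-hydroxymethylcytosine (5hmC) along the mouse autosomes was described from the 2 WT libraries of a study of Tet1. Regions on chromosomes 1 to 19 were taken from the count table, the 25 autosomal regions of highest mean WT count were set aside, and each library was scaled so that its remaining counts summed to 1000000 (CPM). This gave 189470 regions out of 189495 on autosomes and 192196 in the whole table. The study profiled Tet1 constitutive knockout (KO) and WT mice, with 2 5hmC libraries per genotype and 2 input libraries. KO and input counts were not used for the values given here. The list of regions is shared with the KO libraries, so numbers, widths and gaps of regions may not be those of WT alone. Of the kept regions, 779 had 0 counts in both WT libraries. The labels name the WT material as Tet1 WT brain, whereas the methods of the study describe astrocytes grown from the cortex and hippocampus of newborn mice aged 1 to 3 days, and neither gives sex or strain for these libraries. Whether the 2 WT libraries came from separate animals or cultures is not stated, so the spread between them may be technical. The cell type could not be checked against marker genes, because no full gene annotation of the genome build of the table was at hand, and no gene is named for the same reason.

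5hmC is made when a Tet enzyme oxidises 5-methylcytosine, the common methylated form of cytosine in CpG pairs. In brain cells the mark is stable and abundant, and it is known to gather in gene bodies, promoters and enhancers of expressed genes rather than in gene-poor DNA. Tet1, Tet2 and Tet3 all make it. In the assay used here a modified glucose with a biotin tag is attached to 5hmC, tagged fragments are pulled out and sequenced, and the read count in a region reports how much 5hmC-bearing DNA was recovered from it, relative to the rest of the library.

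Regions of the shared list lay on every autosome, with WT counts on each. What set one chromosome apart from another was mainly how many regions it carried, and how strong they were differed little. Chromosome 11 had the most regions per Mb (95.6) and chromosome 14 the fewest (64.1), a 1.49-fold range. CPM per Mb of chromosome spanned 1.66-fold in WT sample 1 and 1.74-fold in WT sample 2, with chromosome 11 highest and chromosome 14 lowest in both. CPM per kb of region spanned only 1.04-fold in WT sample 1 and 1.10-fold in WT sample 2. In the mean of the libraries this small spread ran in the same direction as the number of regions. The mean CPM per kb and regions per Mb had a Pearson correlation of 0.74 across the 19 autosomes. CPM per kb in WT sample 1 and in WT sample 2 had a Spearman correlation of only 0.42. The log2 ratio of WT sample 2 to WT sample 1 also rose with regions per Mb (Pearson 0.58). At the finer scale of 1 Mb bins the mark was far more uneven, and the same bins ranked high in both libraries.

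The WT libraries held 16819455 and 19288900 counts over all regions. The 25 regions set aside took 17.9% of autosomal counts in WT sample 1 (95% Wilson interval 17.9282 to 17.965) and 34.3% in WT sample 2 (34.265 to 34.3075). Wilson intervals here treat each read as independent and do not cover the spread between the libraries. Duplicate reads are not independent molecules, and duplicate removal is not stated. The intervals can therefore be too narrow even for counting error. The last region set aside had a mean count of 2330 and the first one kept had 1978. By position, 14 of the 25 lay on chromosome 9 between 3000032 and 3038305, and 3 lay on chromosome 2 between 98502339 and 98507540 (all coordinates as in the count table, whose build the submitters' processing notes give as mm9). By count, the 4 regions set aside on chromosome 2 held 77.9% of the removed counts in WT sample 1 and 77.4% in WT sample 2. The 15 on chromosome 9 held 14.2% and 14.9%. After removal 13712528 counts were left in WT sample 1 and 12610976 in WT sample 2. Any share of kept counts then has a 95% Wilson interval no wider than 0.0265 percentage points on either side in WT sample 1 and 0.0276 in WT sample 2. The median kept region had 48 counts in WT sample 1 and 44 in WT sample 2. The list of regions is shared by all 4 5hmC libraries, and 3427 of the kept regions (1.81%) had under 3 counts in each WT library, where 3 counts are worth 0.219 and 0.238 CPM in WT samples 1 and 2.

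Kept regions were short, with a median width of 437 bp, a 10th percentile of 253 bp and a 90th percentile of 1032 bp. Together they covered 106.6 Mb, or 4.31% of the 2472 Mb from the start of each autosome to the end of its last region, which stands for chromosome length here. They were not evenly spaced. The median gap to the next region was 4.05 kb, against 12.5 kb if the same regions were spread evenly, and 34.1% of gaps were under 2 kb. At the other end 3079 gaps were longer than 100 kb and took up 579 Mb. Median CPM per kb over regions was 7.93 in WT sample 1 and 7.85 in WT sample 2. The 10th and 90th percentiles were 2.89 and 13.9 CPM per kb in WT sample 1, and 2.96 and 14.1 in WT sample 2.

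Wider regions carried more signal per kb as well as in total. Regions of at most 250 bp had a median of 2.27 CPM per kb in WT sample 1 and 2.90 in WT sample 2. Those of 250 to 500 bp, which made up 49.6% of all, had 7.59 and 7.39 CPM per kb. Medians rose through 8.74 and 8.65 at 500 to 1000 bp and 9.76 and 9.70 at 1000 to 2000 bp, and reached 10.6 and 10.7 above 2000 bp. The 2237 regions above 2000 bp were 1.18% of regions and held 6.48% of CPM in WT sample 1 and 6.59% in WT sample 2. In each library every wider class had the higher median, and the step from one class to the next was larger than the difference between the libraries in either class. The libraries differed most in the narrowest class, where counts are lowest. How the bounds of the regions were set is not given in the sources used here. Width may therefore itself depend on the level, and whether it does was not tested.

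By chromosome, the level per Mb followed the number of regions. Chromosome 11 had 533 CPM per Mb in WT sample 1 and 552 in WT sample 2. Chromosome 19 came next with 489 and 487 CPM per Mb, and chromosome 9 had 460 and 466. These are also the chromosomes with the most regions per Mb, at 95.6, 89.3 and 87.0. At the low end chromosome 14 had 322 and 318 CPM per Mb, chromosome 3 had 353 and 338, and chromosome 7 had 352 and 361, and they carried 64.1, 67.6 and 68.1 regions per Mb. The other 13 autosomes fell between. The length of chromosome 7 includes a stretch of 7.01 Mb without a region, which lowers its values per Mb. Its mean of 357 CPM per Mb was close to that of chromosome 1 (360) and chromosome 16 (363). Its place without that stretch was not computed. Across the 19 autosomes, CPM per Mb and regions per Mb had a Pearson correlation of 0.99 and a Spearman correlation of 0.97, which describes values that share the same region list.

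Not every step in this order was larger than the difference between the libraries. Of the 18 pairs of neighbours, 8 had ranges that did not overlap between the libraries and 10 did overlap. Read within each library, 12 of the 18 pairs kept the same order in both, which adds the steps from 8 to 15, 4 to 17, 10 to 12 and 16 to 1 to the 8. Chromosomes 11, 19 and 9 each stood apart from the next in line, with a step of 54.8 CPM per Mb from 11 to 19, 24.95 from 19 to 9 and 20.7 from 9 to 8. Chromosome 14 stood below chromosome 3 by 25.7 CPM per Mb in the mean, and its libraries lay below both of those of chromosome 3. Chromosomes 2, 4, 8, 15 and 17 lay close together with means from 431 to 442 CPM per Mb, and 3 of the 4 steps among them overlapped. Chromosomes 5, 10, 12 and 18 made another close group, from 394 to 405, in which all steps overlapped. No test was made of these differences, since a single group of 2 libraries gives none.

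**Figure D1:**
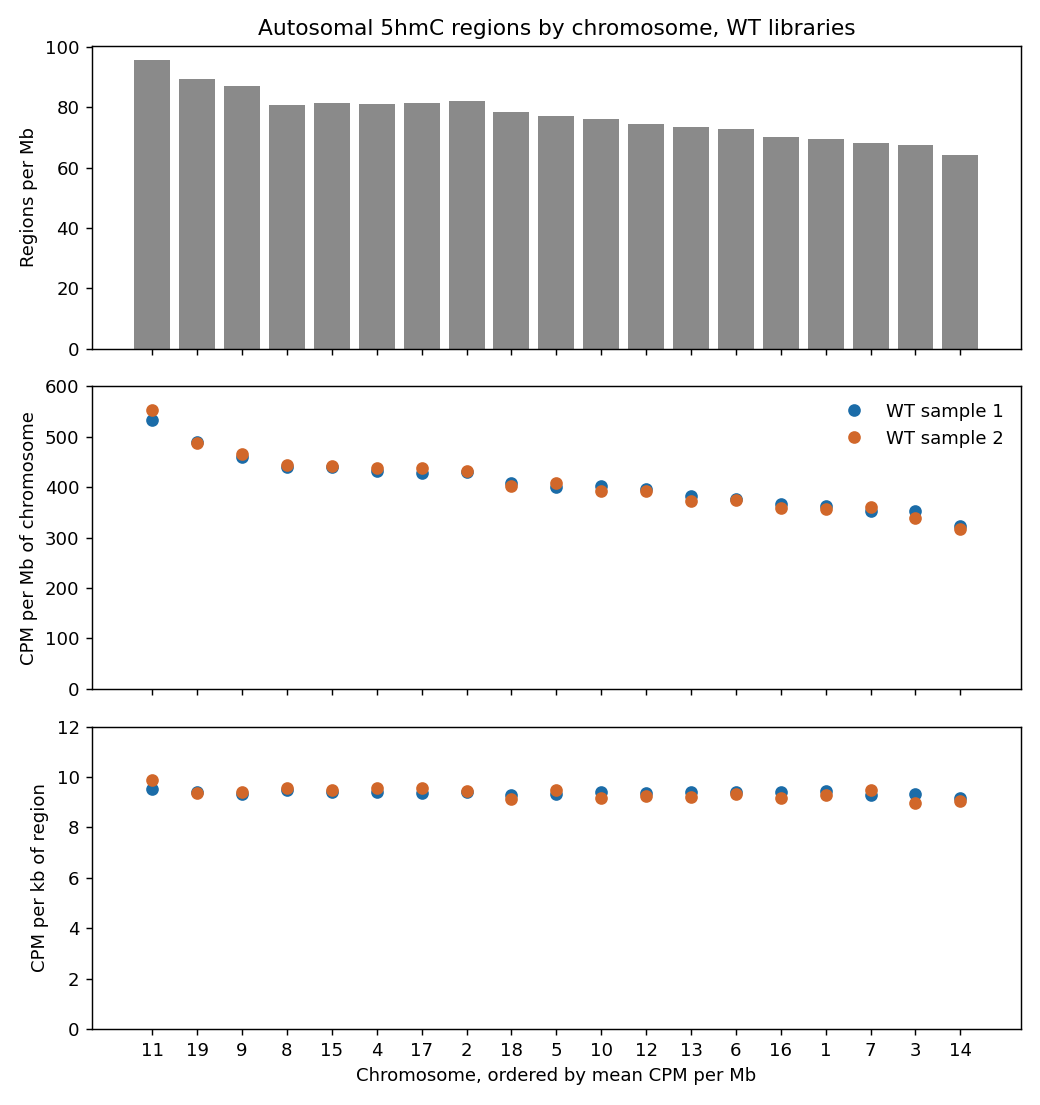
Regions per Mb (top, bars), CPM per Mb of chromosome (middle) and CPM per kb of region (bottom) for the 19 autosomes, ordered by mean CPM per Mb, with 1 point per WT library in the lower panels. The upper panels fall from chromosome 11 to chromosome 14, from 95.6 to 64.1 regions per Mb, while CPM per kb stays between 8.95 and 9.87 throughout.

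Within regions, chromosomes were nearly alike. CPM per kb of region was highest on chromosome 11, with 9.53 in WT sample 1 and 9.87 in WT sample 2. Chromosome 8 had 9.47 and 9.55 CPM per kb, and chromosome 4 had 9.42 and 9.58. The lowest mean was on chromosome 14, with 9.16 and 9.04, followed by chromosome 3 with 9.33 and 8.95 and chromosome 18 with 9.27 and 9.14. The SD between the libraries ranged from 0.0344 CPM per kb on chromosome 15 to 0.268 on chromosome 3 (n = 2), beside means that ran from 9.10 to 9.70. The libraries also ordered the chromosomes differently on this scale, with a Spearman correlation of 0.42 across 19 autosomes, against 0.98 for CPM per Mb. Of the variance of log2(CPM per kb + 1) over regions, 0.119% lay between chromosomes and 11.1% between 1 Mb bins. Region width varied little too, with medians from 427 bp on chromosome 14 to 451 bp on chromosome 9 and chromosome 19.

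The number of regions was set beside properties of whole chromosomes in GRCm38, a later build, which were taken as totals per chromosome and not by position. GRCm38 differs from the build of the table, and 9 of the 19 autosomes had a last region that ended beyond the GRCm38 chromosome. Regions per Mb had a Pearson correlation of 0.85 with CpG pairs per kb, 0.74 with the share of G and C bases and 0.52 with protein-coding genes per Mb (n = 19 autosomes each). Chromosome 11, with the most regions per Mb, had 9.80 CpG pairs per kb, 43.8% G and C and 13.4 protein-coding genes per Mb. Chromosome 7 departed from this order. It had the most protein-coding genes per Mb (13.9) but only 68.1 regions per Mb, or 5.13 regions per gene, against 7.10 on chromosome 11 and 14.1 on chromosome 12. Its densities rest on different lengths, 145.4 Mb in GRCm38 for genes and 152.5 Mb for regions. The longer one includes a stretch of 7.01 Mb without a region. How far this accounts for its place was not tested, and regions per gene do not depend on length. Without chromosome 7, a choice made after the values were seen, the correlation with genes per Mb was 0.82. It was 0.22 without chromosomes 11 and 19, and 0.64 without all 3 (n = 16), so its size depended on which chromosomes were included. The correlation with CpG pairs was 0.74 without chromosomes 11 and 19.

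Divided into bins of 1 Mb, the autosomes gave 2482 bins, of which 2416 held a region. A bin with regions held 72 of them in the median, 11.5 at the 10th percentile, 157 at the 90th percentile and 268 at most. The median such bin had 340 CPM in WT sample 1 and 326 in WT sample 2. The 90th percentile (920 and 942 CPM) was 44.7 times the 10th percentile in WT sample 1 and 52.9 times in WT sample 2. A share of 50% of CPM lay in 519 bins in WT sample 1 and in 498 in WT sample 2, or 20.9% and 20.1% of bins. The top 5% of bins by mean level (124 bins) held 16.1% of CPM in WT sample 1 and 16.7% in WT sample 2, and 12.7% of regions. When the top 124 were chosen in each library alone, 111 were shared, or 89.5% of either list. Only 2.09% of the variance of regions per bin lay between chromosomes, and the CV of regions per bin within a chromosome was between 0.555 on chromosome 11 and 0.846 on chromosome 7. Counts of regions in adjoining bins had a Pearson correlation of 0.55, which was 0.33 at 2 Mb, 0.09 at 5 Mb and 0.02 at 10 Mb.

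**Figure D2:**
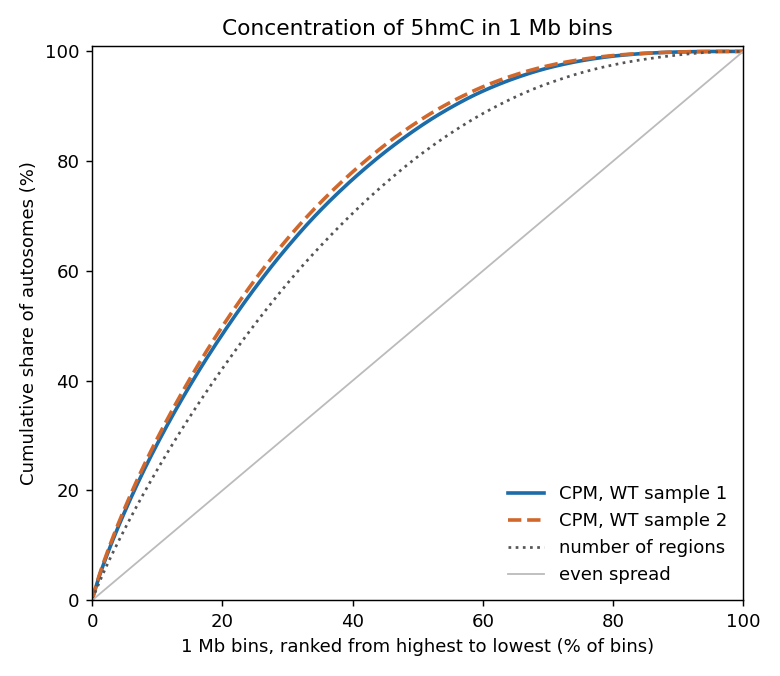
Cumulative share of autosomal CPM in each WT library, and of the number of regions, over 1 Mb bins ranked from highest to lowest, with the line that an even spread would give. The libraries nearly coincide, both reach 50% of CPM within 20.1% to 20.9% of bins, and the regions alone are less concentrated than their CPM.

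The 10 bins of highest level lay on 8 chromosomes, and each was in the top 11 of both libraries. They held 197 to 268 regions. Chromosome 7 from 56000001 to 57000000 was highest, with 1957 CPM in WT sample 1 and 2043 in WT sample 2 over 268 regions that covered 19.8% of the bin. Chromosome 11 from 88000001 to 89000000 followed with 1914 and 2010 CPM over 262 regions. Both ranked first and second in each library, and each was close to 6 times the median bin (6.01 and 5.89 times).

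Chromosome 4 held 3 of the 10 bins. The bin from 141000001 to 142000000 had 1781 CPM in WT sample 1 and 1889 in WT sample 2. The bins from 134000001 to 135000000 and from 149000001 to 150000000 had 1651 and 1633 CPM in WT sample 1 and 1739 and 1733 in WT sample 2. All 3 were higher in WT sample 2, at 1.05 to 1.06 times the level in WT sample 1.

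Chromosome 2 from 167000001 to 168000000 had 1727 CPM in WT sample 1 and 1906 in WT sample 2. Chromosome 10 from 83000001 to 84000000 had 1744 and 1756 CPM, the closest agreement between the libraries among the 10. Chromosome 3 from 121000001 to 122000000 was the only one of the 10 that was lower in WT sample 2, with 1811 and 1727 CPM. The remaining bins were chromosome 18 from 75000001 to 76000000, with 1634 and 1738 CPM, and chromosome 9 from 61000001 to 62000000, with 1643 and 1720 CPM. In none of the 10 did 1 region hold more than 5.14% of the CPM of its bin, so the level came from many regions. CPM per kb of region in these bins ranged from 9.86 to 12.4 over both libraries, against 8.95 to 9.87 for whole autosomes, and covered sequence ranged from 15.1% to 19.8%.

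Of the 66 bins without a region, 57 were the first 3 bins of the 19 autosomes, and no autosome had a kept region before 3000304. Only 9 bins without a region lay further in, in 4 runs. The longest run was 6 bins of chromosome 7 from 40000001 to 46000000, and the gap between regions there reached from 39350979 to 46356450, or 7.01 Mb. The other runs were single bins on chromosome 1 from 86000001, on chromosome 7 from 49000001 and on chromosome 8 from 21000001. Gaps of 2.41 Mb on chromosome 8 and 2.01 Mb on chromosome 1 surrounded 2 of these. Whether reads can be placed in these stretches was not tested.

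Regions in sparse bins were narrower and weaker than those in dense bins. In bins with 1 to 10 regions the median width was 250 bp, and it rose at each step to 484 bp in bins with 151 to 268 regions. Summed CPM over summed kb was 4.82 in WT sample 1 and 5.01 in WT sample 2 in the sparsest class and 9.76 and 10.1 in the densest. Without its 2 bins that also hold regions set aside, the sparsest class was at 4.48 and 4.25. The median region differed more, with 1.28 and 1.76 CPM per kb in the sparsest class against 8.28 and 8.59 in the densest. Mean CPM per region was 1.48 and 1.53 against 6.15 and 6.37. Bins with 151 to 268 regions were 11.2% of bins and held 30.5% of CPM in WT sample 1 and 31.6% in WT sample 2, and those with over 100 and up to 150 were 21.9% of bins and held 37.3% and 37.7%. The median region of the sparsest class had only 4.5 counts in the mean of the libraries, so its values carry the most counting error. In this class 19.6% of regions had 0 counts in WT sample 1 and 11.6% in WT sample 2. The region list is shared with the KO libraries, and its part in these zeros was not tested.

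**Figure D3:**
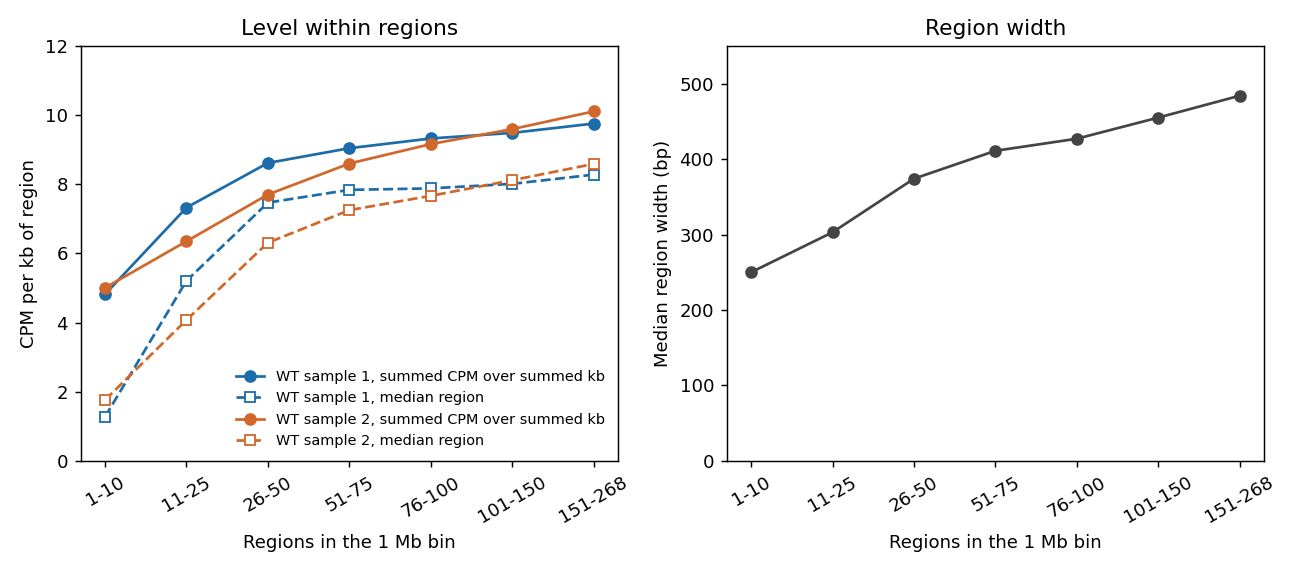
CPM per kb of region (left: filled points, summed CPM over summed kb; open points, median region) and median region width in bp (right) by the number of regions in the 1 Mb bin, for both WT libraries. From the sparsest to the densest bins the summed level climbs from 4.82 and 5.01 to 9.76 and 10.1 CPM per kb, the median region climbs from 1.28 and 1.76 to 8.28 and 8.59, and width climbs from 250 to 484 bp. The summed level of the sparsest class is 4.48 and 4.25 without its 2 bins that also hold regions set aside.

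Regions also resembled their nearest neighbours, though weakly. For pairs less than 1 kb apart, log2(CPM per kb + 1) had a Pearson correlation of 0.22 in WT sample 1 and 0.20 in WT sample 2 (40027 pairs). It was 0.19 when the first region was read in WT sample 1 and the next in WT sample 2, so the likeness did not require that both came from the same library. At gaps of 5 to 10 kb it was 0.09 in each. At gaps of 50 to 100 kb it was 0.18 and 0.17, in a class of 5739 pairs whose median level (6.32 and 5.37 CPM per kb) was below that of close pairs (8.36 and 8.44).

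**Figure D4:**
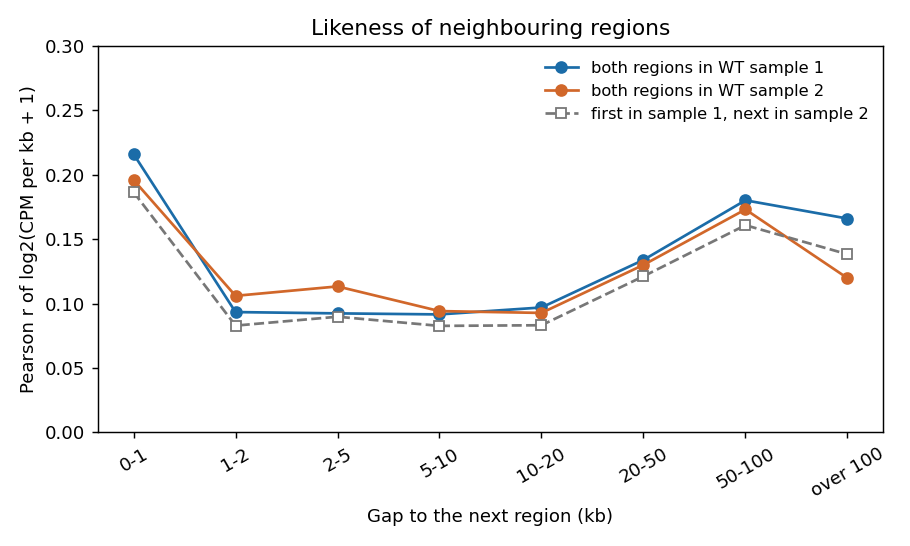
Pearson correlation of log2(CPM per kb + 1) between a region and the next region, by the gap between them in kb, within each WT library and across the pair. Correlations are highest below 1 kb (0.19 to 0.22), lie near 0.1 from 1 to 20 kb and are higher again at 50 to 100 kb (0.16 to 0.18).

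Along the chromosome, the distal end was the denser. The last 10 Mb of the autosomes held 105 regions per Mb, with 566 CPM per Mb in WT sample 1 and 587 in WT sample 2. The first 10 Mb from the first region held 65.7 regions per Mb, with 331 and 328 CPM per Mb, and the DNA between held 77.2, with 408 and 406. CPM per kb of region was close in all 3, from 9.13 to 9.71. The last 10 Mb had more regions than the first on 15 of 19 autosomes. Chromosome 17 went the other way, with 138 regions per Mb in its first 10 Mb and 71.7 in its last.

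Agreement between the WT libraries was then measured. Across the 189470 regions Spearman's rho was 0.886. Across all 2482 bins of 1 Mb, with the 66 that hold no region and are 0 in both libraries, it was 0.997. The level of a bin also depends on its number of regions, which is the same for both libraries. Of all regions, 85.6% were within 2-fold of each other in CPM. Agreement depended on depth. Where the mean count was 100 or more (36777 regions), 99.4% were within 2-fold, whereas under 20 counts (28803 regions) it was 54.0%. The biological coefficient of variation (BCV), which is the spread between the libraries beyond counting error, was 0.220. By chromosome the BCV ran from 0.205 on chromosome 11 to 0.227 on chromosome 3, rho across regions from 0.878 on chromosome 18 to 0.897 on chromosome 7, and rho across bins from 0.995 to 0.998. No autosome therefore stood apart in agreement.

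Over longer stretches the libraries did differ in a patterned way. In the 1882 bins whose mean count reached 1000, the log2 ratio of WT sample 2 to WT sample 1 had an SD of 0.149, where counting error alone gives 0.0323. It was -0.22 at the 10th percentile and 0.12 at the 90th. The ratio rose with the number of regions in the bin, with a Spearman correlation of 0.53 over all these bins and positive values on each of the 19 autosomes (0.16 on chromosome 7 to 0.68 on chromosome 15). On every autosome the median log2 ratio of bins with more than 100 regions (-0.01 to 0.08) was above that of bins with at most 50 (-0.27 to -0.05). By class, the log2 ratio of summed CPM went from -0.21 in bins with 11 to 25 regions, through -0.16, -0.07, -0.03 and 0.02, to 0.05 in bins with 151 to 268. The sparsest class, 1 to 10 regions, was at 0.05, and at -0.08 without its 2 bins that also hold regions set aside for their high counts. Adjoining bins had like ratios, with a Pearson correlation of 0.53 over 1635 pairs, and 0.16 at a distance of 10 Mb.

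Between chromosomes the same ratio was small, from -0.06 on chromosome 3 to 0.05 on chromosome 11, with 9 autosomes above 0 and 10 below. Set beside the share of G and C bases of the whole chromosome in GRCm38, it had a Pearson correlation of 0.91 and a Spearman correlation of 0.90 over the 19 autosomes. Chromosome 3 had the lowest share (40.5%) and chromosome 11 the highest (43.8%). Without chromosomes 11 and 19 the Pearson correlation was 0.94. The base composition of the regions themselves was not read, since the genome at hand is of another build, and its part in the ratio was not tested.

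**Figure D5:**
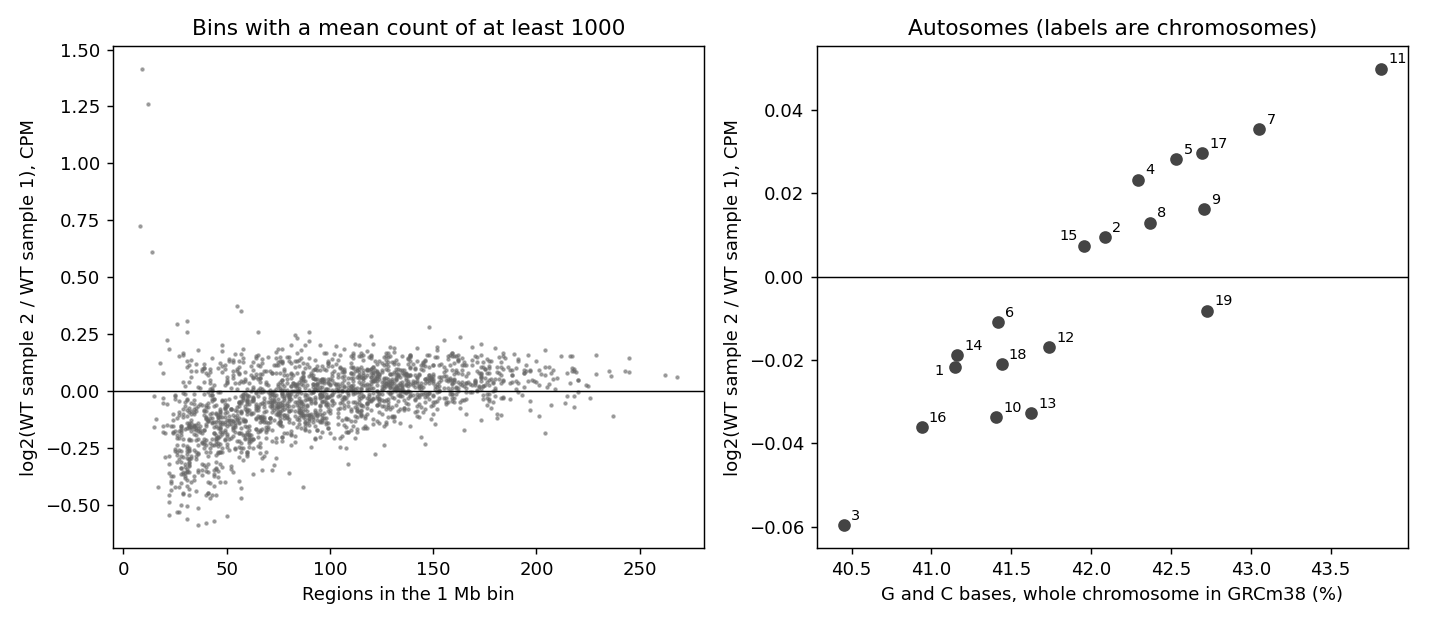
The log2 ratio of WT sample 2 to WT sample 1 in CPM, for 1 Mb bins with a mean count of at least 1000 against the number of regions in the bin (left), and for whole autosomes against their share of G and C bases in GRCm38 (right). Sparse bins lie lower than dense bins on the whole, although the 4 highest points (0.61 to 1.42) are bins with 8 to 14 regions, and autosomes run from -0.06 (chromosome 3) to 0.05 (chromosome 11).

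The 5 bins of largest ratio in either direction held 8 to 36 regions each. Chromosome 2 from 98000001 to 99000000 had 76.7 CPM in WT sample 1 and 205 in WT sample 2, and 93.8% and 97.7% of this came from 1 region. Chromosome 9 from 3000001 to 4000000 had 96.7 and 232 CPM, with 90.05% and 94.5% from 1 region. These are the bins from which 3 and 14 regions were set aside for their counts. Chromosome 17 from 39000001 to 40000000 had 111 and 184 CPM, and 1 region set aside lies there too. Chromosome 8 from 56000001 to 57000000 had 67.7 and 103 CPM with no region set aside. Chromosome 16 from 74000001 to 75000000 went the other way, with 171 CPM in WT sample 1 and 113 in WT sample 2, spread over 36 regions. All 25 regions set aside were higher in WT sample 2 on the same scale, with a median log2 ratio of 1.32 and a range from 0.17 to 1.42. They were chosen by their counts in these same libraries, and the scale leaves their counts out. The ratio is therefore no separate evidence beside their shares of 17.9% in WT sample 1 and 34.3% in WT sample 2.

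For comparison on the same scale, chromosome X had 2637 regions, or 15.8 per Mb, below the 64.1 of the lowest autosome. Its level was 41.9 CPM per Mb in WT sample 1 and 41.3 in WT sample 2, and 6.75 and 6.66 CPM per kb of region, against at least 9.16 and 8.95 on autosomes. Its median region width was 318 bp. The sex of the mice is not given, so the number of X copies and the level of 5hmC cannot be told apart here. Regions on chromosome Y held 5353 counts in WT sample 1 and 4420 in WT sample 2. Whether these counts give the sex was not tested.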

How the data were processed

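Per the labels, genomic DNA bearing tagged 5hmC was purified and made into sequencing libraries. The table deposited by the authors gives unnormalized counts of reads for a single list of regions in 4 5hmC libraries. The submitters' processing notes name Bowtie2 2.2.6 and the build mm9. The caller of the regions, the counting program, duplicate removal and the treatment of multiply aligned reads are not given in the sources used here. The last of these can change counts in repeated sequence. KO and input libraries were not analysed here.

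The members and every list were chosen with earlier results of these data known. WT counts on chromosomes 1 to 19 were scaled to CPM after removal of the 25 regions of highest mean WT count. A region was placed in the 1 Mb bin of its midpoint, and chromosome length was taken as the end of its last region. The BCV is the square root of the common dispersion of edgeR 4.0.16 (R 4.3.3), fitted with an intercept only. The BCV step was checked on simulated counts of known spread. The SD of bin ratios was computed on the same simulated counts, but with no known value to recover. Both libraries belong to 1 group, so no test was run and correlations are given as descriptions. Named items were the 3 highest and lowest autosomes, the 10 highest bins, the runs of bins without a region (the rule asked for 5, and 4 exist) and the 5 bins of largest ratio. No gene is named, since the rule asked for an annotation of the build of the table or a region of the same coordinates that the study had annotated. Chromosome totals of genes, G and C bases and CpG pairs came from GRCm38 (RefSeq sequence, GENCODE M21 genes), and this comparison was also added after the data were seen. Alternatives were no removal, removal of 100 regions, a minimum mean count of 10, TMM and DESeq2 1.42.0 scaling, bins of 0.5 and 2 Mb, another chromosome length, and leaving out each library. Figures were drawn with matplotlib 3.10.9.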

Additional observations from a re-analysis of the deposited data

Results flagged for a closer look

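Signal above the floor of 3 counts was present in WT data outside the autosomal regions described. The 25 regions set aside held 2999182 counts in WT sample 1 and 6579803 in WT sample 2. Chromosome X held 95718 and 86850 counts. Chromosome Y held 5353 and 4420 counts in 56 regions, or 390 and 350 CPM on the autosomal scale, at 20.6 and 18.5 CPM per kb of region. The mitochondrial chromosome held 6674 and 6851 counts in 8 regions, at 80.0 and 89.3 CPM per kb of region, where autosomes had 8.95 to 9.87. Copies per cell of chromosomes X and Y and of the mitochondrial chromosome are not given. Copy number and the level of the mark therefore cannot be told apart in these values. The input libraries were not analysed here.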

How the results depend on the processing

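With both libraries kept, 37 values were recomputed: 19 moved by less than the spread between the libraries or not at all to 3 digits, and 18 moved further. The removal mattered most. With no region removed, the fold between the highest and lowest autosome was 6.06 in CPM per Mb and 4.66 in CPM per kb of region, with chromosome 2 highest in place of chromosome 11, the top 5% of bins held 37.8% of CPM, the BCV was 0.279 and the SD of bin ratios was 0.158. This follows from the counts of the regions themselves. With 100 regions removed, rho across bins was 0.998, the BCV 0.222 and the SD 0.141. With a minimum mean count of 10, rho was 0.855 across regions and 0.998 across bins, the BCV 0.219 and the SD 0.150. The BCV was 0.218 with TMM and 0.222 with DESeq2 scaling. The top 5% held 19.1% of CPM in bins of 0.5 Mb and 14.6% in bins of 2 Mb, with SDs of 0.143 and 0.150. Apart from removal, the cause of these shifts was not tested. Leaving out each library leaves the value of the other and is no check of stability. It gave a share in the removed regions of 17.9% to 34.3%, a fold of 1.66 to 1.74 in CPM per Mb and 1.04 to 1.10 in CPM per kb, and a top 5% share of 16.1% to 16.8%. Agreement cannot be measured with 1 library. No paired analysis was possible because a single group was described and no groups were compared. The order of chromosomes within each library is given with their levels. Low counts limit single regions, since 54.0% of those with a mean count under 20 were within 2-fold.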
